A study of Mus musculus with 6 samples.

Results

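Corin, Duox2, Trim56, Dthd1 and D830031N03Rik are 5 genes whose mRNA was lower in the lateral septum (LS) of mice fed olanzapine than in that of control mice. They were 5 of the 35415 genes in the deposited tables and 5 of the 17255 genes that passed a filter on low counts; all 5 passed it. They were chosen by their values in this same comparison, as the genes with the largest falls among those called lower that averaged at least 50 reads per pool and whose control and olanzapine pools did not overlap. Their levels and fold changes are therefore given as a description, without a test.

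The libraries were made from LS tissue of wild-type female C57BL/6 mice that arrived at 8 weeks of age and were acclimated for 1 week. The olanzapine group received 50 mg/kg of olanzapine in its maintenance feed for 12 weeks, and the control group received ordinary feed. Each group held 3 libraries, and each library was a pool of LS tissue from 3 mice, so a spread between pools is a spread between pools of animals. The 6 libraries held 38208153 to 39868872 counted reads each. In bulk tissue, fewer cells of a type and less RNA per cell cannot be told apart.

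The LS is a forebrain nucleus made up mostly of GABAergic neurons, and it is known for its part in feeding, social behaviour and anxiety. Olanzapine is an atypical antipsychotic that blocks dopamine and serotonin receptors, and weight gain and disturbed glucose and lipid metabolism are its known side effects. The 5 genes belong to no common pathway. Corin is a membrane-bound serine protease, best known from the heart, that cuts the precursor of atrial natriuretic peptide into the active hormone. Duox2 is a dual oxidase of the NADPH oxidase family that makes hydrogen peroxide, which thyroid peroxidase uses to build thyroid hormone. Trim56 is a RING-type ubiquitin ligase of the tripartite motif family with a known part in antiviral signalling. Dthd1 encodes a protein with a death domain and is little studied, and D830031N03Rik is known only by a cDNA clone name and the synonym Kiaa0754.

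The 300 bases around a transcript start of each gene are shown because the 5 genes were lower together and these windows let their sequence be compared. Each runs 5′ to 3′ on the gene's own strand, from 250 bases before to 50 bases after a RefSeq transcript start, on build GRCm38.p6, the assembly that the mm10 genome used for the deposited counts also represents. The windows are chr5:72504491-72504790 on the minus strand for Corin, chr2:122298178-122298477 on the minus strand for Duox2, chr5:137116158-137116457 on the minus strand for Trim56, chr5:62811406-62811705 on the plus strand for Dthd1 and chr4:123411862-123412161 on the minus strand for D830031N03Rik. For Duox2 and Trim56 this start lies inside the gene, and the outer end of the gene lies outside the window. Capitals mark matches on either strand to 1 of 7 motifs searched for: the TATA box, written TATAAA, the CAAT box, written CCAAT, the GC box, written GGGCGG, the E-box, written CACGTG, the cyclic AMP response element, written TGACGTCA, a STAT factor motif, written TTCNNNGAA, and the interferon-stimulated response element core.
Corin: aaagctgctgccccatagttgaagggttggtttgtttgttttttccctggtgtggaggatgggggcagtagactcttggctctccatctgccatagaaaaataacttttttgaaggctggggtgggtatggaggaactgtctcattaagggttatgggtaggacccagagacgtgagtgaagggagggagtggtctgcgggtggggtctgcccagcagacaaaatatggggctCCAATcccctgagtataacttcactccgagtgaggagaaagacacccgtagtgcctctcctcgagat
Duox2: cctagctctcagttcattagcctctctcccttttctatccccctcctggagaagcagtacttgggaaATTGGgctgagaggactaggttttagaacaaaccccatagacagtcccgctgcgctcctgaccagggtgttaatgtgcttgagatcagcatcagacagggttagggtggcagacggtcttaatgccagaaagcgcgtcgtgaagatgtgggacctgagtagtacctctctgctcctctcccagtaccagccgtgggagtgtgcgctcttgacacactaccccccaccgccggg
Trim56: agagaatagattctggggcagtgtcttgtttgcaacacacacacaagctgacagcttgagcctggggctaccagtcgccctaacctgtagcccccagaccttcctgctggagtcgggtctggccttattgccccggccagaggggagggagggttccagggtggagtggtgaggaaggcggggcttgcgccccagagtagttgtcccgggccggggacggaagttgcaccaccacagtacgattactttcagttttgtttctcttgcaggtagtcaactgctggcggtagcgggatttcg
Dthd1: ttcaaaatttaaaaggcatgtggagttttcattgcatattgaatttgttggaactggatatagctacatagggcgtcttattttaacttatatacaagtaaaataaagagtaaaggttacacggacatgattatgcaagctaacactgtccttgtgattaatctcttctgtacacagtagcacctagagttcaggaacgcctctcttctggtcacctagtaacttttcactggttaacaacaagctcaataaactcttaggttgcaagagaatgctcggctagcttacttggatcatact
D830031N03Rik: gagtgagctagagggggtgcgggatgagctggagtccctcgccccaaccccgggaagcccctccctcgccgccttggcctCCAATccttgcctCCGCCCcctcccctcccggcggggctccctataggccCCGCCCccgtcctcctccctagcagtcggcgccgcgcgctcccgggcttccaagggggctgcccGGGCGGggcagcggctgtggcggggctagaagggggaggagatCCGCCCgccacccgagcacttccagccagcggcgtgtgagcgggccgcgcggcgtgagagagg

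No motif of the 7 was found in all 5 windows. CCAAT was found in the windows of Corin, beginning 17 bases before the start, D830031N03Rik, 170 bases before it, and Duox2, on the other strand and 183 bases before it; 37.4% of the 32851 RefSeq windows of this length held it. GGGCGG was found only in the D830031N03Rik window, beginning 157, 120, 56 and 13 bases before the start on either strand, and 35.7% of all windows held it. None of the 5 windows held the TATA box motif (13.6% of all windows), the E-box (7.15%), the cyclic AMP response element (1.79%), the STAT factor motif (8.3%) or the interferon-stimulated response element core (3.44%), which says only that these letters were not in these windows.

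The windows also differed widely in base composition. GC content was 37% for Dthd1, at percentile 5.78 of all windows, and 75.3% for D830031N03Rik, at percentile 96.4. Corin at 51.7%, Duox2 at 55.3% and Trim56 at 58.7% lay nearer the median of all windows, 52.7%. CpG dinucleotides numbered 4 in Dthd1, 5 in Corin, 10 in Duox2, 12 in Trim56 and 30 in D830031N03Rik, against a median of 7.

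Corin had the largest fall of the 5 in the fit of all pools, nearly equal to that of Duox2. Without olanzapine pool 1 or control pool 3 the fall of Duox2 was the larger. Scaled to a common library size, the normalized count of Corin was 163.9, 129.3 and 129.9 in the control pools against 34.01, 60.25 and 60.32 with olanzapine. The lowest olanzapine value came from pool 1, and the groups did not overlap: the lowest control pool was 2.14 times the highest olanzapine pool. The means were 141 ± 19.8 and 51.5 ± 15.2 (SD, n = 3), a log2 fold change of -1.45 (SE 0.28), which left 36.5% of the control level.

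Duox2 was the most variable of the 5 in the control group. Its normalized count was 170.9, 131.3 and 93.2 in the control pools against 46.4, 44.5 and 54.3 with olanzapine. The control pools spanned a wide range while the olanzapine pools lay close together, and the groups did not overlap, with the lowest control pool 1.72 times the highest olanzapine pool. The means were 131.8 ± 38.8 and 48.4 ± 5.22 (SD, n = 3), a log2 fold change of -1.44 (SE 0.28).

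Trim56 had the highest deposited FPKM of the 5, a rank that depends on the gene length used. Its normalized count was 224.8, 211.3 and 245.9 in the control pools against 88.6, 105.7 and 78.4 with olanzapine. The groups did not overlap, and the lowest control pool was 2.00 times the highest olanzapine pool. The means were 227.3 ± 17.4 and 90.9 ± 13.8 (SD, n = 3), a log2 fold change of -1.32 (SE 0.19), and 39.99% of the control level was left.

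Dthd1 was counted at 94.9, 130.3 and 106.1 normalized reads in the control pools against 43.3, 49.4 and 49.3 with olanzapine. The groups did not overlap, and the lowest control pool was 1.92 times the highest olanzapine pool. The means were 110.4 ± 18.1 and 47.3 ± 3.49 (SD, n = 3), a log2 fold change of -1.22 (SE 0.24).

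D830031N03Rik had the smallest fall of the 5 in the fit of all pools, close to that of Dthd1. Without control pool 2 or olanzapine pool 3 the fall of Dthd1 was the smaller. D830031N03Rik was counted at 305.7, 261.6 and 252.8 normalized reads in the control pools against 105.1, 112.6 and 144.8 with olanzapine. The groups did not overlap, and the lowest control pool was 1.75 times the highest olanzapine pool. The means were 273.4 ± 28.4 and 120.8 ± 21.1 (SD, n = 3), a log2 fold change of -1.18 (SE 0.19), which left 44.2% of the control level.

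**Figure D1:**
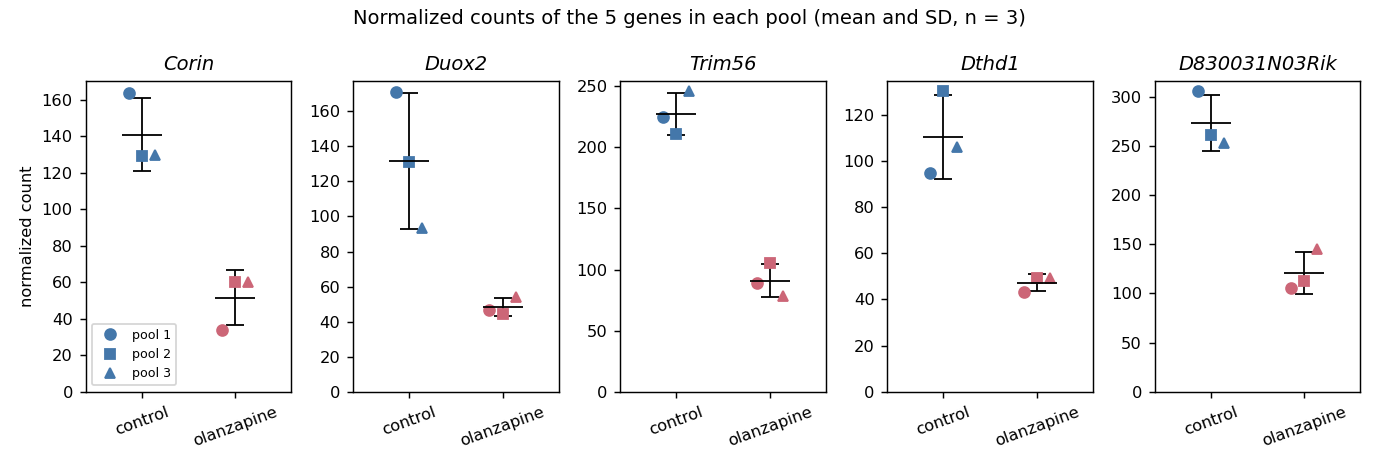
Normalized counts (vertical axis, reads scaled to a common library size) of the 5 genes in the 3 control pools (blue) and the 3 olanzapine pools (red), with 1 symbol for each pool number and with the mean and SD of each group in black. For each gene all control pools lie above all olanzapine pools, from Corin, whose lowest control pool was 2.14 times its highest olanzapine pool, to Duox2 at 1.72 times.

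The pool with the highest or lowest value was not the same for all 5 genes. In the control group pool 1 was highest for Corin, Duox2 and D830031N03Rik, pool 2 for Dthd1 and pool 3 for Trim56. In the olanzapine group the normalized count was lowest in pool 1 for Corin, Dthd1 and D830031N03Rik, in pool 2 for Duox2 and in pool 3 for Trim56. The smallest number of reads behind any of these values was 33, for Corin in olanzapine pool 1, where counting error alone gave a coefficient of variation of 17.4%. The spread between pools that the model estimated was larger, a biological coefficient of variation of 19.1% for D830031N03Rik and Trim56 and up to 25.95% for Duox2.

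Levels were compared between genes in FPKM, which is a count divided by gene length and by the library total. In the control group Trim56 was highest at 1.49 ± 0.122 FPKM, followed by Dthd1 at 0.966 ± 0.163, D830031N03Rik at 0.835 ± 0.0779, Corin at 0.672 ± 0.0872 and Duox2 at 0.549 ± 0.157 (SD, n = 3 for each). The control pools of Trim56, 1.39 to 1.63 FPKM, lay above those of every other gene, whereas Dthd1 and D830031N03Rik overlapped, as did Corin and Duox2. This order depends on the gene lengths used. The FPKM imply 3864 bases for Trim56, whereas its exons in the GENCODE M21 annotation cover 9281. For D830031N03Rik they imply 8311 bases, its whole span. The order between genes is therefore uncertain. In the olanzapine group the order was the same, from 0.608 ± 0.105 FPKM for Trim56 to 0.421 ± 0.0392 for Dthd1, 0.375 ± 0.0653 for D830031N03Rik, 0.251 ± 0.0775 for Corin and 0.205 ± 0.0208 for Duox2, with the same neighbours overlapping. By the deposited FPKM all 5 were low-level transcripts, at percentile 15.4 (Duox2) to 27.2 (Trim56) of the FPKM of all tested genes.

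Over all tested genes, the edgeR quasi-likelihood test with Benjamini-Hochberg adjustment called 401 genes, or 2.32% of 17255, at an adjusted p under 0.05. The olanzapine group was higher in 316 of these (1.83%) and lower in 85 (0.493%), and 10 (0.0580%) were lower by more than 2-fold. The olanzapine pools all lay below the control pools in 1898 genes, or 11.0%. The 5 genes were past each of the limits on lower genes by the way they were chosen, so nothing is read from that. At an unadjusted p under 0.05 there were 3035 genes (17.6%). DESeq2 called 1093 of the 19070 genes to which it gave an adjusted p (5.73%), and limma called 1.94% of genes on log2(FPKM + 1), 1.95% on log2(FPKM + 0.1) and 0.922% on log2(FPKM + 1) without a filter. The called changes were mostly upward, and the median log2 fold change of all genes was 0.0039.

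The limit between the 5 genes and the next fell between D830031N03Rik, at -1.18, and Eomes, a T-box transcription factor, at -1.14 on the log2 scale. Eomes was counted at 468.7 ± 60.2 normalized reads with control feed and 213.2 ± 41.3 with olanzapine (SD, n = 3). The other genes called lower beyond 2-fold that met the same limits were Plcxd3 at -1.06, Crb1 at -1.05 and Ksr2, a scaffold of the MAP kinase pathway, at -1.04. C130021I20Rik had a larger fall, -2.84, with 16, 28 and 24 reads in the control pools and 3 in each olanzapine pool, and was not among the 5 because its mean of 12.8 reads was under 50. A further 26 genes averaging at least 50 reads were lower by more than 2-fold in the fit but were not called.

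**Figure D2:**
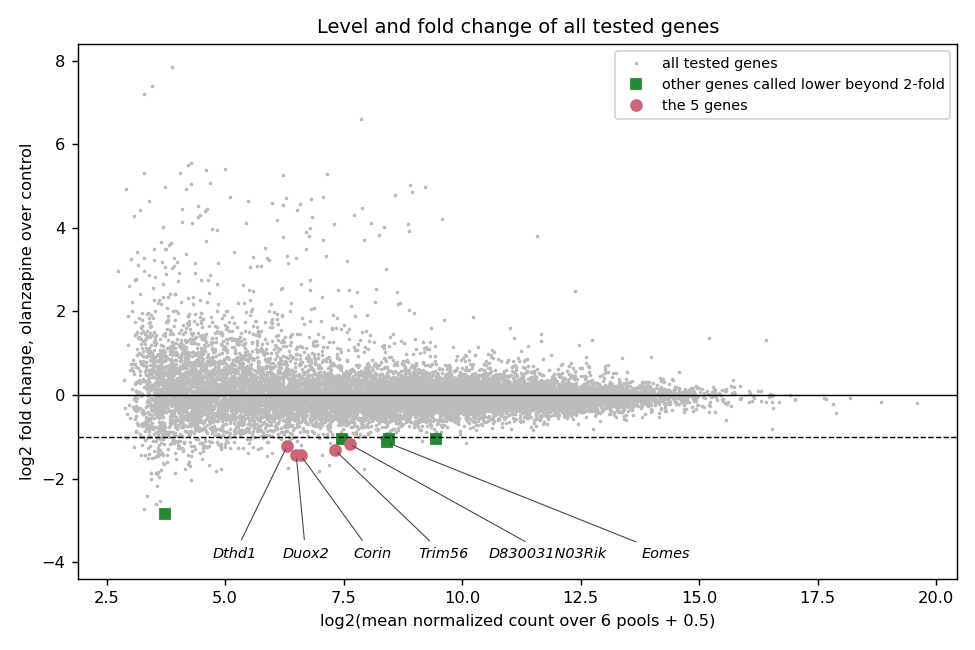
Log2 fold change of olanzapine over control (vertical axis) against log2 of the mean normalized count over the 6 pools plus 0.5 (horizontal axis) for the 17255 tested genes (grey), the 5 genes (red) and the 5 other genes called lower by more than 2-fold (green); the dashed line marks a 2-fold fall. The 5 genes lie between -1.45 and -1.18 in the lower part of the range of levels, and Eomes lies just above them at -1.14.

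The limits of an adjusted p under 0.05 and a fall of more than 2-fold in the edgeR fit chose the 5 genes, so that they passed there and in DESeq2, other library scalings and other count filters on the same counts is not a result about them. With 1 pool left out, 0 of the 5 passed without control pool 1 or control pool 2. In these fits 0 of all tested genes passed the same limits. Without control pool 3, 1 passed (Duox2), against 7 over all tested genes. Without olanzapine pool 2, 1 passed (Trim56), against 3 over all genes, and without olanzapine pool 3, 1 passed (D830031N03Rik), against 5. Without olanzapine pool 1, 3 passed, namely Corin, Trim56 and D830031N03Rik, against 18 over all genes. With limma, 0 passed on log2(FPKM + 1) and 2 (Trim56 and Dthd1) on log2(FPKM + 0.1), against 0 and 7 over all genes. The fold changes from counts stayed below -1 with any pool left out, from -1.58 to -1.23 for Corin, -1.63 to -1.21 for Duox2, -1.44 to -1.23 for Trim56, -1.32 to -1.08 for Dthd1 and -1.33 to -1.09 for D830031N03Rik. These fits reuse the pools by which the 5 genes were chosen, so the ranges are a description and not a test.

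**Figure D3:**
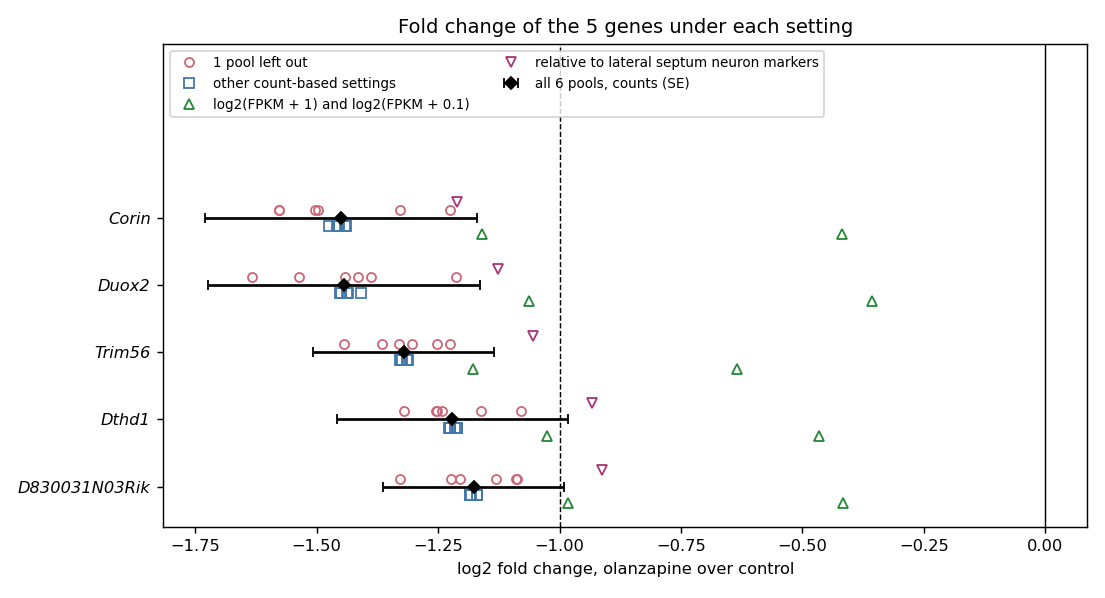
Log2 fold change of olanzapine over control (horizontal axis) for each of the 5 genes from counts in all 6 pools (black, with its SE), with 1 pool left out (red), with other count-based settings (blue), from log2(FPKM + 1) and log2(FPKM + 0.1) (green) and relative to LS neuron markers (purple). Values from the fits of counts stay left of the dashed line at -1, and the values from log2(FPKM + 1) lie between -0.63 and -0.36.

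The tissue was checked against markers of the cell types that it could hold. The 8 LS neuron markers, among them Gad1, Gad2 and Slc32a1 of GABAergic neurons and Zic1 and Trpc4, were present in every pool, with a summed level of 110400, 93230 and 85560 normalized reads in the control pools against 67520, 79430 and 93390 with olanzapine. The groups overlapped, and edgeR called 0 of the 8, against 2.32% of all genes. Their median log2 fold change was -0.32, with 7 of the 8 below 0, and 3 (Gad2, Zic1 and Trpc4, all below 0) had an unadjusted p under 0.05, against 17.6% of all genes. D830031N03Rik followed the same order of pools within each group as this sum. Expressed relative to the LS neuron sum in each pool, a scaling chosen after seeing the data, the log2 fold changes were -1.21 for Corin, -1.13 for Duox2, -1.05 for Trim56, -0.93 for Dthd1 and -0.91 for D830031N03Rik.

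Other markers moved with the groups or with single pools, and edgeR calls among them are set against 2.32% of all genes. All 8 hepatocyte markers rose, with a summed level of 414.4 to 779.9 normalized reads in the control pools and 7744 to 9735 in the olanzapine pools. All 8 nuclear-retained RNAs were higher in every olanzapine pool than in any control pool. Of these, edgeR called 6 (Malat1, Meg3, Miat, Snhg11, Mirg and Kcnq1ot1) and did not call Neat1 or Rian. Their sum over all 8 went from between 88800 and 110300 to between 199000 and 241000. The 6 cortical glutamatergic neuron markers summed to 35290 in olanzapine pool 1 and to between 2048 and 4707 in the other 5 pools, and the 8 choroid plexus markers ranged from 4100 to 293200 in the control pools and from 2691 to 183900 in the olanzapine pools. Without olanzapine pool 1 the log2 fold changes of the 5 genes were -1.23 for Corin, -1.42 for Duox2, -1.30 for Trim56, -1.16 for Dthd1 and -1.09 for D830031N03Rik. Ependyma, endothelium and astrocyte markers had medians of -0.54, -0.41 and -0.20 with no marker called and with 4 of their 20 (Foxj1, Flt1, Aqp4 and Gja1, all below 0) at an unadjusted p under 0.05, against 17.6% of all genes, the microglia, oligodendrocyte, mural, blood cell, meningeal, cholinergic and striatal lists had medians between -0.18 and 0.28 with none called and 4 markers (Abcc9 and Cx3cr1 below 0, C1qa and Rgs9 above 0) at an unadjusted p under 0.05, and no marker of any list was at 0 in all pools. Beyond the scaling to LS neuron markers, the part of these markers in the levels of the 5 genes was not tested.

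**Figure D4:**
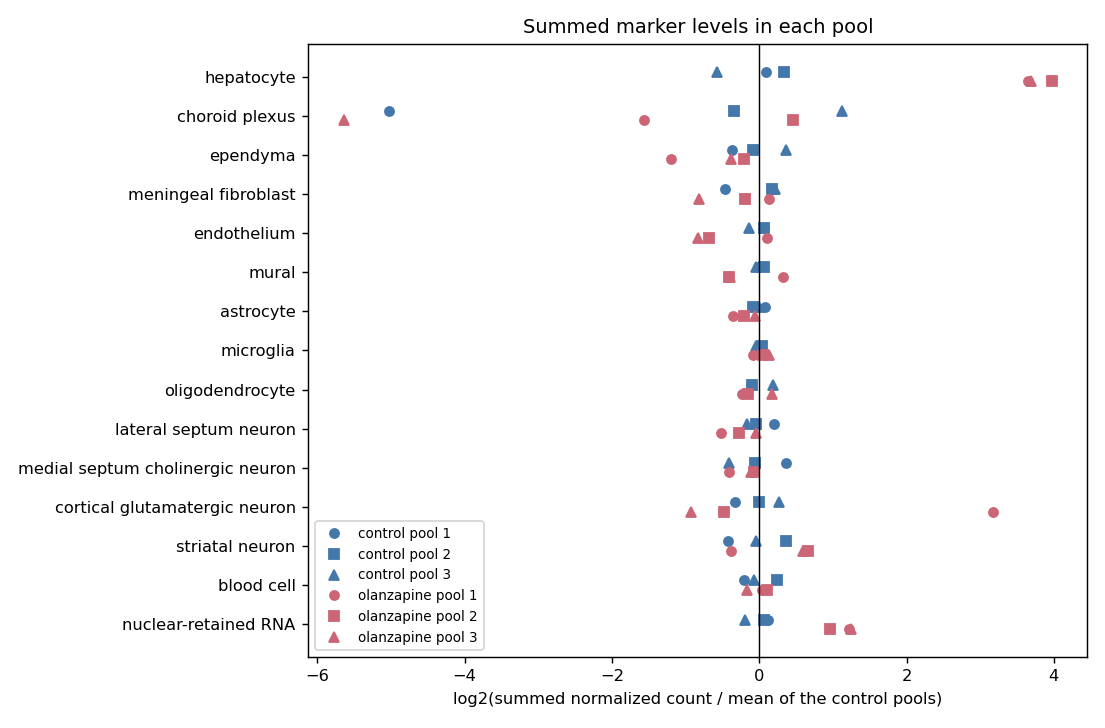
Log2 of the summed normalized count of each marker list relative to the mean of the control pools (horizontal axis), for the 3 control pools (blue) and the 3 olanzapine pools (red). Hepatocyte markers and nuclear-retained RNAs separate the groups, cortical glutamatergic markers single out olanzapine pool 1 with a sum of 35290 normalized reads, and the LS neuron sums overlap.

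The partners of Corin belong to the natriuretic peptide system. This system joins peptide hormones (Nppa, Nppb and Nppc), their receptors (Npr1, Npr2 and Npr3), proteases that activate or degrade the peptides, and kinases that respond to the cyclic GMP the receptors make. Of 13 listed genes 10 were tested by edgeR and 0 were called, against 2.32% of all tested genes; 3 (Pcsk6, Prkg1 and Prkg2) had an unadjusted p under 0.05, against 17.6% of all genes, DESeq2 called 1 (Pcsk6, lower), against 5.73% of all genes, and limma on FPKM called 0. Their median log2 fold change was -0.28, against 0.0039 over all genes. Nppa, whose product Corin cuts, was too low to test at 9, 5 and 15 reads in the control pools against 11, 9 and 5 with olanzapine, and Nppb had 0 reads in every pool, below a floor of 3 counts.

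The 3 members of this system with the highest mean FPKM over the 6 pools were Npr2, Pcsk6 and Ide. Pcsk6, a proprotein convertase that activates Corin, was 1403 to 1785 normalized reads in the olanzapine pools and 1928 to 2357 in the control pools, a log2 fold change of -0.43 (SE 0.12, adjusted p = 0.118 by edgeR). The groups did not overlap, but the difference did not pass the test. Npr2, the receptor of C-type natriuretic peptide, was at 0.12 on the log2 scale (adjusted p = 0.371 by edgeR) and Ide, a protease that degrades insulin and natriuretic peptides, at 0.08 (adjusted p = 0.640).

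The maturation partners of Duox2 were close to absent. Duoxa2, the factor that Duox2 needs to leave the endoplasmic reticulum, had 1, 0 and 1 reads in the control pools against 4, 0 and 0 with olanzapine. Duoxa1 had 6, 0 and 2 reads against 1, 1 and 1, and Duox1, the other dual oxidase, had 1, 1 and 3 against 1, 1 and 0. These genes lie next to Duox2 on chromosome 2, Duoxa2 starting 160 bases from it, and none reached the count at which genes were tested.

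Of 15 other NADPH oxidase genes 9 were tested by edgeR and 0 were called (2.32% of all genes), 0 had an unadjusted p under 0.05 (17.6% of all genes), and DESeq2 (5.73% of all genes) and limma called 0. With so few genes tested, 0 calls are near what the share over all genes gives. Their median log2 fold change was 0.14. The 3 with the highest FPKM were Rac1, a small GTPase of the oxidase complex, at 0.03 (adjusted p = 0.837 by edgeR), Cyba, its membrane subunit, at -0.27 (adjusted p = 0.523), and Ncf1, a cytosolic subunit, at 0.13 (adjusted p = 0.785). Of 7 genes of thyroid hormone synthesis 6 were tested by edgeR and 0 were called, against the same shares of all genes, again with 0 at an unadjusted p under 0.05 and 0 called by DESeq2 and limma, and with a median of -0.15. Slc5a5, the iodide transporter, was the most abundant of them at a log2 fold change of 0.25 (adjusted p = 0.643 by edgeR), with Slc26a4, an anion exchanger, at 0.70 (adjusted p = 0.548). Tshr, the thyrotropin receptor, followed at -0.82 (adjusted p = 0.300). Thyroglobulin (Tg) had 8, 1 and 5 reads in the control pools against 2, 0 and 2 with olanzapine and was not tested.

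Genes that sense foreign nucleic acid or pass on that signal, the setting in which Trim56 is best known, were all 16 tested, and edgeR called 0, against 2.32% of all genes. Their median log2 fold change was -0.10; 4 (Tlr3, Irf7, Ifih1 and Trim25) had an unadjusted p under 0.05 (17.6% of all genes), DESeq2 called 2 (Irf7 and Trim25, both lower; 5.73% of all genes), and limma called 0. The 3 with the highest FPKM were the kinase Tbk1 at 0.09 (adjusted p = 0.659 by edgeR), the adaptor Traf3 at -0.10 (adjusted p = 0.665) and the transcription factor Irf3 at 0.15 (adjusted p = 0.472). Irf7, an interferon-induced transcription factor, had a fall of the size of the 5 genes, -1.45 (SE 0.35), with 248.8, 224.1 and 102.1 normalized reads in the control pools against 80.4, 76.1 and 54.3 with olanzapine. Its control pool 3 stood well below the other two, and its adjusted p was 0.0847 by edgeR; without that pool it was called. Irf7 is named here after its values were seen.

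Among the other Trim genes 42 of 67 were tested by edgeR and 0 were called, against 2.32% of all genes; 7 had an unadjusted p under 0.05, close to the 17.6% of all genes, DESeq2 called 3 (Trim25 lower, Trim39 and Trim9 higher), against 5.73% of all genes, and limma called 0. Their log2 fold changes ran from -0.78 to 1.21 with a median of -0.09, and 27 were below and 15 above 0. The 3 with the highest FPKM were Trim44 at -0.17 (adjusted p = 0.296 by edgeR), Trim35 at -0.04 (adjusted p = 0.813) and Trim37 at -0.06 (adjusted p = 0.839).

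Of 29 genes that share the death domain of Dthd1 all were tested, and 1 (3.45%) was called, against 2.32% of all tested genes. That gene, Thoc1, a death domain protein of the THO complex that couples transcription to mRNA export, rose from 591.5, 648.6 and 561.1 normalized reads in the control pools to 1047, 997.6 and 905.8 in the olanzapine pools. Its log2 fold change was 0.71 (SE 0.10, adjusted p = 0.0135 by edgeR), opposite in sign to that of Dthd1, and the call was lost without control pool 1 or olanzapine pool 2. The list's median was -0.11 with 9 genes above and 20 below 0, and 7 genes had an unadjusted p under 0.05, against 17.6% of all genes. DESeq2 called 4, against 5.73% of all genes, with Thoc1 and Tnfrsf25 higher and Unc5d and Ank3 lower. The most abundant of the rest were Tnfrsf21, a death receptor, at -0.26 (adjusted p = 0.251 by edgeR), Dapk1, a calcium-dependent kinase, at -0.08 (adjusted p = 0.702) and the ankyrin Ank2 at -0.24 (adjusted p = 0.404).

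D830031N03Rik lies wholly inside another gene. RefSeq places it at chr4:123403601-123411911 on the minus strand of GRCm38.p6, within Macf1 at chr4:123349633-123687802 on the same strand; Macf1 encodes a giant protein that links actin filaments to microtubules. In GENCODE M21, which has no gene of the name D830031N03Rik, an exon of Macf1 covers 4474 bases, or 53.8%, of its span, so reads from the overlap could have been given to either gene or to neither. The length that the deposited FPKM imply for D830031N03Rik, 8311 bases, is that of its whole span, and its level is uncertain for this reason.

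Macf1 itself was far more abundant. Its normalized counts were 16340 to 19670 in the control pools and 14260 to 17430 in the olanzapine pools, and the groups overlapped. Its log2 fold change was -0.20 (SE 0.11, adjusted p = 0.362 by edgeR), against -1.18 for D830031N03Rik. All 7 plakin family genes, large linkers of the cytoskeleton, were tested by edgeR and 0 were called, against 2.32% of all genes; 1 (Dst) had an unadjusted p under 0.05, against 17.6% of all genes, DESeq2 (5.73% of all genes) and limma (at most 1.95%) called 0, and the median was -0.33 with all 7 below 0. The most abundant after Macf1 were Dst at -0.33 (adjusted p = 0.175 by edgeR) and Plec at -0.05 (adjusted p = 0.894).

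Of the 5 genes 3 lie on chromosome 5, which holds 6.26% of the tested genes with a position and 8 of the 85 genes called lower (9.41%). These 8 include the 3 genes themselves and the 85 include all 5, so nothing is read from that share. Corin is at chr5:72299948-72504540 on the minus strand, Trim56 at chr5:137111286-137116462 on the minus strand and Dthd1 at chr5:62811656-62888318 on the plus strand, so these 3 are not adjacent. Duox2 is at chr2:122279246-122298740 on the minus strand. Of the 3 nearest genes on each side of each gene, 30 in all, 14 were tested by edgeR and 0 were called, against 2.32% of all tested genes; 2 (Gabrb1 and Ndufs5) had an unadjusted p under 0.05, near the 17.6% of all genes, DESeq2 called 1 (Gabrb1), against 5.73% of all genes, and limma called 0. Their median log2 fold change was 0.11, with 8 above and 6 below 0.

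Of the neighbours of Corin, Gabrb1, a GABA-A receptor subunit, had 8344 ± 1068 normalized reads with control feed and 5930 ± 470 with olanzapine (SD). Its groups did not overlap, its log2 fold change was -0.49 (SE 0.11), and its adjusted p of 0.0607 by edgeR missed the threshold; DESeq2, upper-quartile scaling and the fit without a count filter called it. The other tested neighbours of Corin were Commd8 at -0.04, Gm38562 at -0.36, Nfxl1 at 0.17 and Zar1 at 0.40. Near Duox2, Sord was at -0.08, and near Trim56, Ap1s1 was at 0.16 and Vgf at 0.13. Near Dthd1, Arap2 was at 0.10, Nwd2 at 0.26 and 0610040J01Rik at -0.08, and near D830031N03Rik, Ndufs5 was at 0.19. The tested neighbours thus had log2 fold changes between -0.49 and 0.40.

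**Figure D5:**
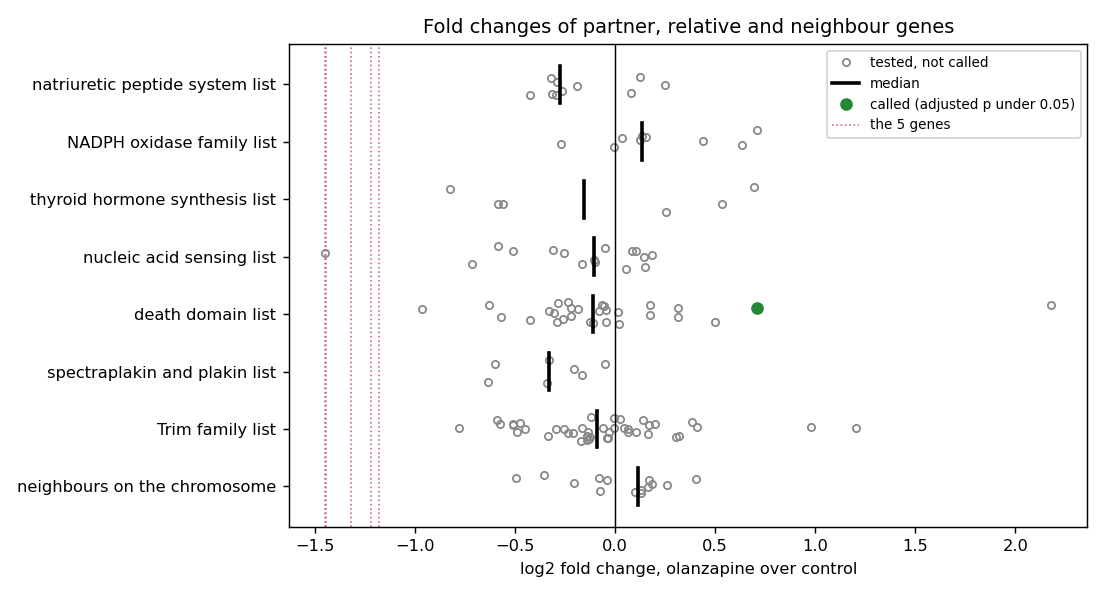
Log2 fold change of olanzapine over control (horizontal axis) of each tested gene in the 7 lists of partner and family genes and among chromosomal neighbours (rows), with the median of each list as a black bar, called genes filled green and the 5 genes as dotted red lines. The medians lie between -0.33 and 0.14, and Thoc1 at 0.71 is the called gene.

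The genes whose pattern over the 6 pools was most like that of each of the 5 were found by the root mean square (RMS) difference of centred log2 normalized counts, among 14278 genes averaging at least 50 reads. The closest match was that of D830031N03Rik with Eomes, at an RMS difference of 0.0906. Eomes was counted at 535.5, 418.6 and 452.1 normalized reads in the control pools against 170, 217.3 and 252.3 with olanzapine, lowest in olanzapine pool 1 like D830031N03Rik. Ankfn1 (0.170) and Plcxd3 (0.178) followed.

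For Corin the nearest were Eomes (RMS difference 0.218), D830031N03Rik (0.258) and Uncx (0.271), a homeobox gene. For Duox2 they were D830031N03Rik (0.22), Ksr2 (0.225) and Plcxd3 (0.245). For Trim56 they were Il17rd (0.175), Crb1 (0.193) and Lpar4 (0.197), and for Dthd1 they were Lpar4 (0.217), Gm11992 (0.222) and Kcnj5 (0.224). Among the 5 themselves the RMS difference ran from 0.22 for Duox2 and D830031N03Rik to 0.364 for Duox2 and Trim56, and only for Duox2 was the nearest match 1 of the 5. Since the 5 were chosen for a large fall, genes with a large fall are near them by this measure.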

How the data were processed

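Bulk RNA-seq libraries were compared between 3 control and 3 olanzapine pools of LS tissue. Per the labels' processing notes, the authors trimmed reads with fastp, aligned them to mm10 using HISAT2 and made gene counts by HTSeq; versions and the strand setting were not given in the sources used here. The deposited counts are whole reads per gene and not normalized. The deposited FPKM equal the count divided by gene length and library total: 1 length per gene reproduced all 6 pools within 0.1% for 18693 of 18693 genes with reads in every pool, so FPKM added no information to the counts.

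Counts were filtered with filterByExpr (minimum count 10, minimum total 15), which left 17255 of 35415 genes, scaled by TMM and tested with edgeR 4.0.16 (R 4.3.3) by the quasi-likelihood test of olanzapine against control, and p-values were adjusted by Benjamini-Hochberg across the 17255 genes. DESeq2 1.42.0, other scalings and filters, limma 3.58.1 on log2(FPKM + 1) and log2(FPKM + 0.1), and leaving out each pool were alternatives. Within each group no 2 libraries agreed within sampling noise. With 3 pools against 3, an exact two-sided permutation test of a single gene cannot go below p = 0.1, and none was run. The floor of 3 counts covers counting error only. The SE of a log2 fold change also includes the spread between pools that the model estimated.

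The 5 genes, the gene lists and the marker lists were chosen with earlier results of these data known. Named genes were the 5 genes; in each list of partner genes the called genes and the 3 others with the highest FPKM; the tested neighbours, of which 1 is not reported here; the other genes called lower beyond 2-fold; and the 3 genes nearest to each of the 5 in pattern. Promoter windows and positions were taken from RefSeq and GENCODE M21, and all 5 symbols matched RefSeq.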

Additional observations from a re-analysis of the deposited data

How the results depend on the processing

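The log2 fold changes of the 5 genes were computed under 80 alternative values in all, of which 68 moved by less than the spread between pools, 12 moved by more and 0 reversed. From log2(FPKM + 1), with or without a filter on low values, they were -0.42 for Corin, -0.36 for Duox2, -0.63 for Trim56, -0.47 for Dthd1 and -0.42 for D830031N03Rik; a pseudocount of 1 exceeds most of these FPKM, which shrinks the fold. Relative to the summed LS neuron markers, an alternative chosen after seeing the data, Trim56 moved to -1.05 and Dthd1 to -0.93. The number of the 5 past the limits on adjusted p and fold was 5 with all pools, 0 with limma on log2(FPKM + 1), filtered or not, 2 (Trim56 and Dthd1) with limma on log2(FPKM + 0.1), and 0 to 3 with 1 pool left out, which leaves fewer samples. Over all genes, the number past these limits was 10 with all pools and 0 to 18 with 1 pool left out. It was 0 with limma on log2(FPKM + 1), filtered or not, and 7 on log2(FPKM + 0.1).

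With the replicate number as a block, 0 of the 5 passed, with log2 fold changes of -1.47 for Corin, -1.41 for Duox2, -1.33 for Trim56, -1.21 for Dthd1 and -1.18 for D830031N03Rik. In that fit 0 of all 17255 tested genes passed the same limits. The numbers do not pair the pools: the correlation of the deviations of same-numbered pools was -0.0224, 0.072 and -0.246, and the labels give the numbers no shared meaning, so this loss is not read as a weaker effect.

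Over all genes edgeR called 401, DESeq2 1093 (5.73%) and limma on log2(FPKM + 1) without a filter 240 (0.922%). For the lists, DESeq2 called 1 natriuretic peptide gene, 2 nucleic acid sensing genes, 4 death domain genes, 3 Trim genes and 1 neighbour. Without a filter on low counts 3 death domain genes and 1 neighbour were called, and upper-quartile scaling called 1 neighbour. With 1 pool left out the calls ranged from 0 to 1 for the nucleic acid sensing and the death domain lists; the first gained Irf7 without control pool 3, and the second lost Thoc1 without control pool 1 or olanzapine pool 2. At an unadjusted p under 0.05 the counts were 3 natriuretic peptide, 4 nucleic acid sensing, 7 death domain, 1 plakin and 7 Trim genes and 2 neighbours, while 17.6% of all genes passed it. The cause of these differences was not tested. Low counts limited what could be tested, since Nppa, Nppb, Duoxa1, Duoxa2, Duox1 and Tg had too few reads to pass the filter.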
